A study of Mus musculus with 36 samples.

Results

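CD11c-negative microglia from the cortex of amyloid-bearing mice are described here cell by cell. The study sorted single microglia from cortex or hippocampus of male mice aged 6 months that were wild type (WT) or carried the APPswe transgene of an amyloid model (written APP). Sorting gated live nucleated cells (DAPIneg DRAQ5pos) that were CD11bhigh and CD45int, and then divided them by CD11c on the cell surface. Members were every cell barcode of the 6 libraries titled as CD11c-negative APP cortex that had at least 200 detected genes. This gave 454 cells of 455 barcodes, or 17.1% of the 2657 cells kept in the whole series. They came from 4 animals, with 151, 150, 79 and 74 cells and 3277635, 4406184, 2235750 and 1037425 counts. Animals 1 and 2 had 2 libraries each, animals 3 and 4 had 1 each.

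The 3 groups set beside them were CD11c-negative WT cortex (390 cells), CD11c-negative APP hippocampus (426 cells) and CD11c-positive APP cortex (587 cells), each from 4 animals of the same sex and age. APP and CD11c status were read from library titles. A genotype tag given beside each title contradicts it for 17 of 36 libraries, among them 4 of the 6 described here, and the closing section gives results with that tag. The APP transgene, a chimeric mouse/human sequence, is driven by the mouse prion promoter. The gene counts used here do not separate its reads from those of the endogenous App and Prnp.

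Microglia are the resident macrophages of the brain. In the undisturbed brain they carry a homeostatic program that includes the purinergic receptor P2ry12, the membrane protein Tmem119 and the fractalkine receptor Cx3cr1, and that depends on the receptor Csf1r and on TGF-beta signalling. Near amyloid plaques some of them shift toward a disease-associated state (DAM), with less of that program and more Apoe, Cst7, Lpl and Itgax, which encodes CD11c. The cells here lie on the CD11c-negative side of that gate.

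Libraries were not fully separate, and this bears on genes with few counts. The libraries drew on the same cell barcodes: 83 distinct barcodes served all 36 libraries, and any pair of the 6 libraries shared 69 to 78 of them. Over the 630 library pairs, 34 were at least 1.5 times as similar between cells of the same barcode as between cells of different barcodes. Of these 34 pairs, 33 carried the same S number in their titles, out of 36 such pairs, and the remaining pairs had a median ratio of 1.08. In the first library of animal 1, of 210 entries (a gene in a barcode) with at least 100 counts, of genes seen in under 2% of all cells, 81.0% also had a count at the same barcode of its second library, at a median of 1.75% of the source. From CD11c-positive to CD11c-negative libraries, such entries had a count at the same barcode in 12 of 18 cases (a library of animal 3 against animal 4) and in 5 of 10 (another of animal 3 against animal 3). They had none in 15 (animal 4 against its own CD11c-negative library) and none in 10 (animal 3 against the second library of animal 2). From CD11c-negative to CD11c-positive libraries it was 229 of 275 cases for the second library of animal 2 against animal 3. For animal 3 against its own CD11c-positive library it was 10 of 154. For animal 4 it was 14 of 23 against its own and 1 of 23 against animal 3. The cause was not tested. Results that rest on few counts are therefore given with all counts and also without shared entries, meaning entries of at most 10% of the same gene and barcode in a partner library. That filter took 6.5% to 23.9% of the entries of the 6 libraries, against 6.04% to 11.7% when the partner's barcodes were shifted by 1 place, so part of what it takes is not shared. The filter takes a low count wherever the partner has the gene high at that barcode, so for genes that are high in a CD11c-positive partner it is given beside the same filter with shifted barcodes. Animals 3 and 4 and the second library of animal 2 have such a partner. So do animals 3 and 4 of CD11c-negative WT cortex and animal 4 of CD11c-negative APP hippocampus, both groups set beside this population. In these, cells with Apoe went from 21 to 7, 17 to 7 and 29 to 1 without shared entries, and to 7, 8 and 2 with shifted barcodes.

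The label was checked against its markers, given as CPM (an animal's counts of the gene scaled by its summed counts) and as the share of cells with at least 1 count, which is a mean over the 4 animals unless the number of cells is given. Tmem119 stood at 1689, 1777, 1639 and 1296 CPM in animals 1 to 4, a mean of 1600 ± 211 (SD, n = 4), and had a count in 69.7% of cells. P2ry12 stood at 1709, 1423, 2139 and 1909 CPM (1795 ± 304) and had a count in 77.4% of cells. Sema4b, a transmembrane semaphorin, stood at 1139, 1236, 1421 and 1299 CPM (1274 ± 118), with a count in 65.2% of cells. All 3 markers lay above 1000 CPM in every animal, and no animal stood apart. All 454 cells had a count of at least 3 of 25 homeostatic genes, with a median of 11, and 448 cells still did without shared entries. Itgax had 6 counts in all, at 0 in animals 1 and 2 (which allows up to 0.915 and 0.681 CPM) and at 0.895 and 3.86 CPM in animals 3 and 4. The markers and the near absence of Itgax counts go with the label, but the markers were chosen with earlier results of these samples known. Of the 587 CD11c-positive APP cortex cells, 45.7% also had a count of Tmem119, 65.6% of P2ry12 and 22.7% of Sema4b. Itgax had a count in only 17.2% of those 587 cells, so a cell without Itgax counts is not placed by it.

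The promoters of 2 of the markers and of 2 complement genes that lead the population per kb are shown because each holds a match to AGGAAGT or its reverse complement ACTTCCT, the core recognised by PU.1, the ETS factor that macrophages depend on. Sequences are from RefSeq on GRCm38.p6, 250 bases before to 50 after a start, written 5′ to 3′ along the gene, with the match in capitals. P2ry12 lies at chr3:59262936-59263235 on the minus strand, Sema4b at chr7:80198338-80198637 on the plus strand (1 of its 2 listed starts), C1qb at chr4:136886151-136886450 and C1qc at chr4:136892865-136893164, both on the minus strand.
P2ry12: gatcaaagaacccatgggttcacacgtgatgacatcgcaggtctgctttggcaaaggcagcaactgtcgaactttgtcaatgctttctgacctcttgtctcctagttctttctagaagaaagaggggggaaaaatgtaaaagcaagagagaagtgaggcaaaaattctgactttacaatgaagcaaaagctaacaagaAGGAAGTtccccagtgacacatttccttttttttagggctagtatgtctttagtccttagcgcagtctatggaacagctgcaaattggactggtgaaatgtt
Sema4b: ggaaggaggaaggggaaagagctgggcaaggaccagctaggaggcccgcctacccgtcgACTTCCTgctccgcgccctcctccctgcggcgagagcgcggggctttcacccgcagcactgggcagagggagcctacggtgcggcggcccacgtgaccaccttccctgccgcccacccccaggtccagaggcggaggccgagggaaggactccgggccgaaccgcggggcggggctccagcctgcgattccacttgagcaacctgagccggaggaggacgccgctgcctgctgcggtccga
C1qb: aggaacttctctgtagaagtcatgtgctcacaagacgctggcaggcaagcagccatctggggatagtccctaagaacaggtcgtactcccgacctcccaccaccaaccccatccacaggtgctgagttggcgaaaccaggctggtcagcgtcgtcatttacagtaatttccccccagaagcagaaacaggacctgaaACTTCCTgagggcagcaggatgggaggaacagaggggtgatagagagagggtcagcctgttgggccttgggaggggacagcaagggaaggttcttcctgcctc
C1qc: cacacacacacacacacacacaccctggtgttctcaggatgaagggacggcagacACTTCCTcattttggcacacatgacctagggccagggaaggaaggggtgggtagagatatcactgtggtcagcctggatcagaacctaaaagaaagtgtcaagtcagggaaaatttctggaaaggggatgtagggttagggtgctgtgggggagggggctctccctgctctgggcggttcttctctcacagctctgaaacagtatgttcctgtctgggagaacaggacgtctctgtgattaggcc
Searched on both strands, AGGAAGT was found for 5 of 19 homeostatic genes with a listed promoter (26.3%: Fcrls, Ltc4s, P2ry12, Sall1 and Sema4b), for 3 of 14 of the 20 genes leading per kb (21.4%: C1qb, C1qc and Ctss), for 1 of 15 of the 20 leading by CPM (6.67%: Itpripl1) and for 2886 of all 27025 genes (10.7%). The composite ETS-IRF motif was found for none of these 3 sets, against 3.16% of all genes. A MEF2-like motif was found for Cx3cr1 among the homeostatic genes, Zscan26 among those leading by CPM and none leading per kb, against 4.23% of all genes. A match is a run of letters, not a bound site.

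The leading genes encoded cytoskeletal, secreted and surface proteins and included non-coding RNAs. Actb, beta-actin, led with 11145, 9897, 9571 and 13365 CPM (10994 ± 1720). Cst3, the secreted cysteine protease inhibitor cystatin C, followed with 7591, 7569, 6766 and 7726 CPM (7413 ± 437). Malat1, a nuclear long non-coding RNA, had 6273, 5935, 6834 and 7804 CPM (6712 ± 817). These 3 had a count in all 454 cells, and animal 4 was the highest in each.

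Next in mean level came Dpysl2, a tubulin-binding protein (6036 ± 723 CPM), the kinase Bmp2k (5726 ± 302), the tetraspanin Cd81 (5312 ± 666) and Adap2os (5274 ± 523). Each had a count in at least 99.7% of cells on average over animals. Adap2os lies inside Adap2 (2878 ± 361 CPM), and the sources used here do not say whether counting used strand, so their reads may not be separable. The remaining 13 of the 20 genes of highest CPM ran from Dhrs3 at 4545 ± 553 to Gnb1 at 3474 ± 578 CPM. They include Ptafr, the platelet-activating factor receptor (4405 ± 721), the transcription factor Bhlhe41 (4200 ± 404), the cholesterol exporter Abcg1 (4017 ± 341) and the receptor Notch2 (3916 ± 386). The top 20 varied little between animals, and 20 of 20 stayed there without shared entries.

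**Figure D1:**
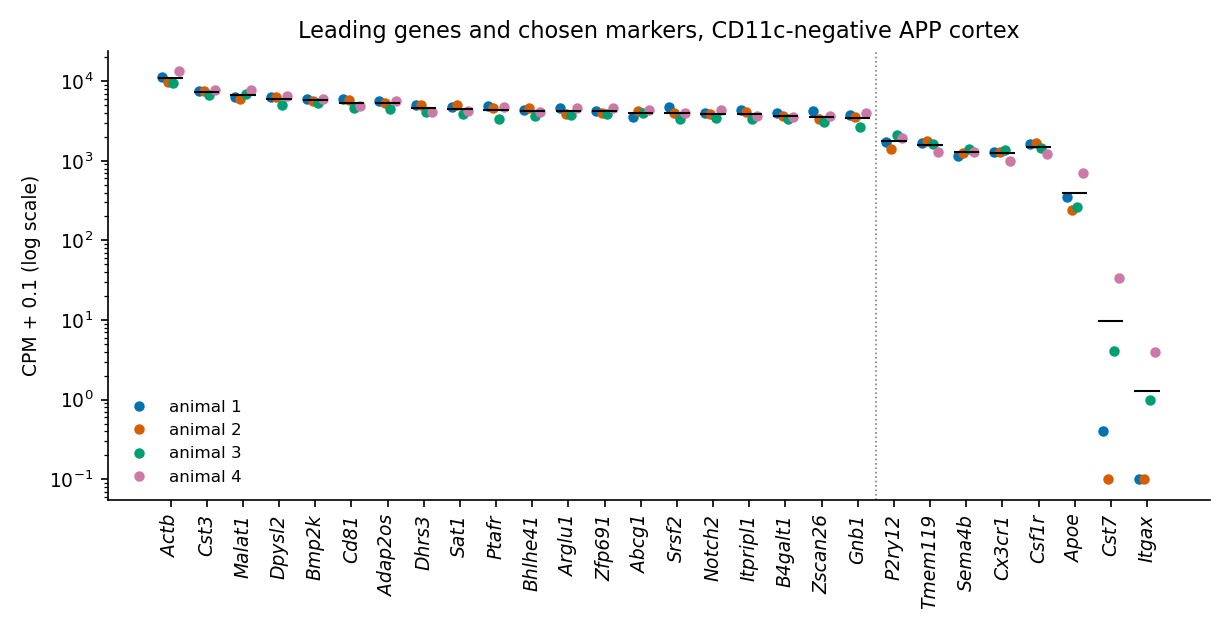
CPM of the 20 leading genes (left of the dotted line) and of 8 chosen markers in each of the 4 animals, on a log axis after adding 0.1; the bar is the mean. The leading genes sit close together in every animal, from Actb at 10994 to Gnb1 at 3474 CPM, while Cst7 and Itgax lie near the floor and differ between animals.

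Levels of different genes are compared per kb of exon. This scale presumes reads along the whole transcript, which was not tested, and otherwise favours short genes. On this scale Cst3 led with 5855 CPM per kb, then Adap2os (5360), Actb (4104), the lysosomal protease Ctss (2001), the MHC class I light chain B2m (1877) and the complement genes C1qb (1848) and C1qc (1727). Of the 20 leading genes by CPM, 10 were also among the 20 leading per kb. Expression was spread over many genes: the 10 highest genes held 6.09% of counts, the 100 highest 26.6% and the 500 highest 51.4%. The mitochondrial genome took 1.3% of counts and 86 ribosomal protein genes 1.16%.

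A small core of genes was seen in nearly every cell and a long tail in few. Cells had a median of 18107 counts and 652 detected genes, with a range of 279 to 4512 genes. Of 18811 genes with a count in any cell, 200 were detected in at least 50% of cells on average over the animals, 89 in at least 75% and 37 in at least 90%. The number at 50% was 136 in 440 cells thinned to 5000 counts, 134 without shared entries and 105 when at least 5 counts were asked for. Only 7413 genes had a count in all 4 animals.

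Detection and level did not run in parallel for every gene. Card9, an adaptor of pattern recognition receptors, averaged 182 CPM and had a count in 294 of 454 cells. Fcrls, an Fc receptor-like scavenger receptor, averaged 1095 ± 271 CPM but had a count in 34.4%, 46.0%, 65.8% and 54.1%. Siglech, a sialic acid-binding lectin, was detected in 42.4%, 35.3%, 77.2% and 66.2% of cells. Animal 3 had the highest share for Fcrls and Siglech. It also had the deepest cells, with a median of 25970 counts against 11899 to 22357 in the other animals.

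Among homeostatic receptors and surface genes, Selplg, the ligand of P-selectin, averaged 2049 ± 137 CPM (86.7% of cells), the lysophosphatidylserine receptor Gpr34 1583 ± 53.9 (81.1%), Csf1r 1479 ± 202 (70.7%) and Cx3cr1 1238 ± 160 (65.2%). The 25 homeostatic genes together made up 25848, 26588, 27160 and 24098 CPM. Transforming growth factor receptor Tgfbr1 (782 ± 122 CPM) and the matrix protein Sparc (1169 ± 167) had a count in 48.0% and 63.3% of cells. P2ry13, the neighbour of P2ry12, was at 197 ± 65.3 CPM in 19.6% of cells, and Crybb1, a crystallin that marks microglia, at 102 ± 60.9 CPM in 8.64%.

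Complement and lysosomal genes were also widespread. C1qc was detected in 97.0% of cells (3334 ± 163 CPM), C1qb in 83.0% (2011 ± 570) and C1qa in 74.0% (1214 ± 174). The cathepsins Ctss (2717 ± 274 CPM, 87.5% of cells), Ctsd (2680 ± 578, 88.9%) and Ctsb (1864 ± 290, 86.8%) were alike in detection. The signalling pair Trem2 (944 ± 78.0 CPM) and its adaptor Tyrobp (866 ± 84.8) had a count in 56.0% and 54.0% of cells. The 30 lysosomal genes summed to between 17356 and 21849 CPM and the 20 complement and phagocytic genes to between 10578 and 13696 CPM.

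Apoe, the lipid carrier that marks the DAM state, was unevenly detected between libraries. Its level was 356, 244, 263 and 700 CPM in animals 1 to 4 (391 ± 212), while its share of cells was 24.5%, 20%, 68.4% and 70.3%. Animals 3 and 4 had the high shares, although only animal 4 had the higher level. Their CD11c-negative libraries have CD11c-positive partners, in which Apoe is high. Removing shared entries left 12 of 54 cells in animal 3 and 9 of 52 in animal 4, and the same filter with shifted barcodes left 18 and 10. The filter therefore cannot tell shared Apoe counts from others in these animals, and how much of either share comes from other libraries was not tested.

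Other DAM genes were near the floor. Cst7, cystatin F, had 45 counts in 31 cells, of which 30 lay in animals 3 and 4. Removing shared entries left 2 Cst7 cells, and the filter with shifted barcodes left 12. Igf1, the insulin-like growth factor, had a count in 7 cells (1 without shared entries, 6 with shifted barcodes) and Itgax in 5 (1 and 3). Lpl, lipoprotein lipase, differed: its 797 counts lay in 32 cells, but 5 cells held 87.3% of them, and its level was 94.3, 96.7, 19.7 and 17.4 CPM. Lpl was higher in the animals with fewer cells carrying it, and 10 cells remained without shared entries (25 with shifted barcodes). Serpine2, a serine protease inhibitor counted in the DAM core list, was common instead, at 870, 473, 508 and 338 CPM and in 176 of 454 cells. Of these, 111 cells remained without shared entries (121 with shifted barcodes). Serpine2 was as common in the other CD11c-negative groups or more so, in 161 of 390 cells of WT cortex and 252 of 426 of APP hippocampus. Of the 18 DAM core genes, 4 had no count (Gpnmb, Postn, Apoc4 and Gpx3). At least 3 of the 18 were seen in 46 of 454 cells, which was 4.64%, 1.33%, 21.5% and 27.0% of cells by animal. It was 10 cells without shared entries, 22 with shifted barcodes and 6 when at least 5 counts per gene were asked for.

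**Figure D2:**
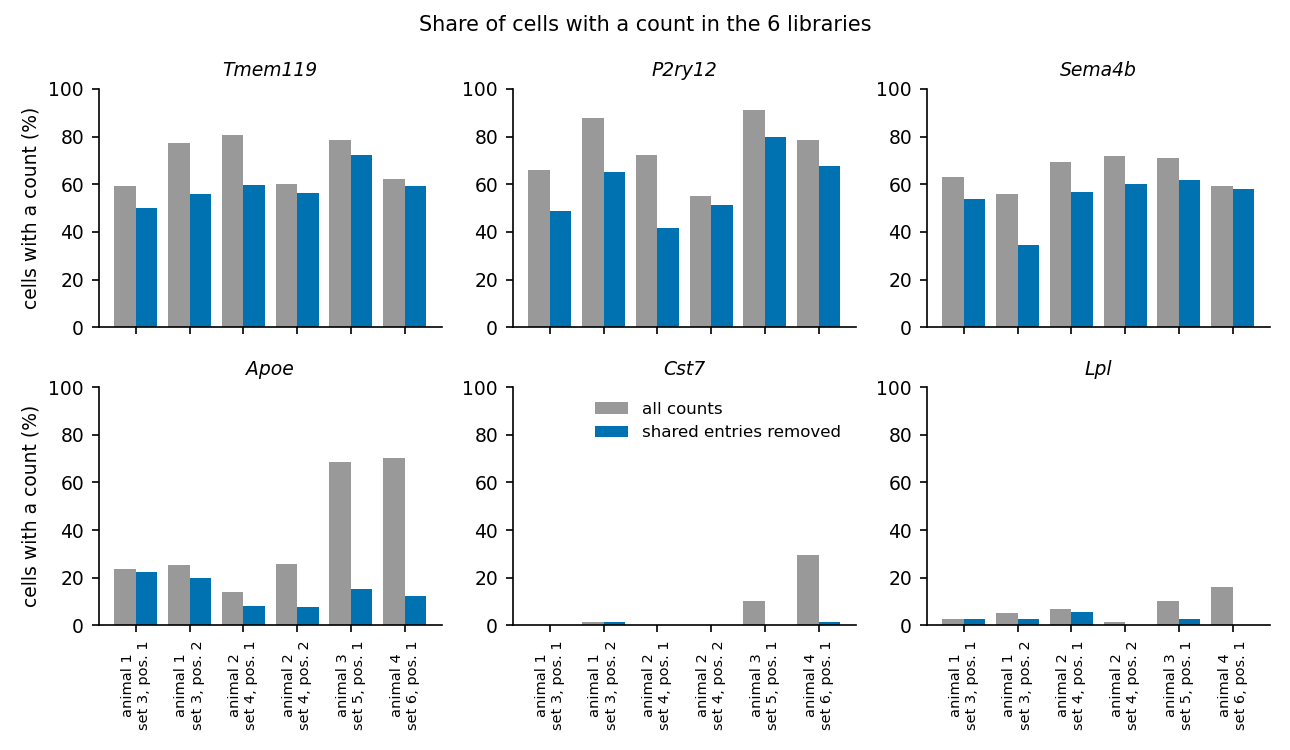
Share of cells with a count of 6 genes in each of the 6 libraries, with all counts (grey) and without shared entries (blue). The lowest share without shared entries is 50% for Tmem119, 41.7% for P2ry12 and 34.7% for Sema4b. Apoe falls from 68.4% and 70.3% to 15.2% and 12.2% in animals 3 and 4, and with the filter on shifted barcodes to 22.8% and 13.5%.

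Interferon, MHC class II and inflammatory genes were carried by few cells. Any of 22 interferon response genes had a count in 30.2% of the 454 cells, but 10 cells held 51.2% of those counts, and 10 cells had at least 3 of the genes. The list summed to 532, 685, 329 and 388 CPM. The 9 MHC class II genes summed to 264, 585, 233 and 1034 CPM, with 56.2% of counts in 10 cells. H2-Ab1, a class II beta chain, was in 13 cells. The cytokine and chemokine list summed to between 285 and 748 CPM with 51% of counts in 10 cells. Il1b had 1 count, and Tnf and Ptgs2 had none. Cell cycle genes summed to between 107 and 253 CPM, and Mki67 was in 2 cells. Immediate early genes, which respond to handling as well as to signals, summed to between 1030 and 1384 CPM, with Jund (250 ± 36.3 CPM) in 43.5% of cells.

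Transcripts of other brain cells were present at low level. At least 1 of 14 neuronal genes had a count in 48.0% of the 454 cells, and 37 cells had at least 3 of them (25 without shared entries). The list summed to 1247, 790, 1301 and 1439 CPM, with 48.9% of counts in 10 cells. Of 10 astrocyte genes at least 1 was seen in 40.5% of them (413 to 1217 CPM by animal) and of 12 oligodendrocyte genes in 15.6% (179 to 291 CPM). Neutrophil genes summed to 168, 162, 141 and 45.3 CPM, in every animal under the oligodendrocyte list (226, 179, 291 and 256). Only 2 of the 10 neutrophil genes had counts, with 72.1% of them in 10 cells. Mmp8, Ltf and S100a8 were at 0. Border macrophage genes summed to at most 20.8 CPM, with Pf4, F13a1, Ms4a7 and Cbr2 at 0, and monocyte genes to at most 85.8 CPM. Erythrocyte genes reached 280 CPM in animal 2 and at most 0.61 in the other animals. Whether such reads came from attached material, from doublets or from other libraries was not tested, and doublets were not called.

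Cell-to-cell spread was measured within each animal as the squared coefficient of variation (CV) of CPM over cells, on a log10 scale, in excess of the running median of 51 genes of like mean. The spread was measured for 984 genes with at least 50 CPM and a count in at least 10% of cells of each animal. Of these, 136 predicted, mitochondrial or ribosomal protein genes count in the ranks but are left out of the genes named as extreme. The lowest of all was a predicted gene, Gm10837, at -1.02. Between the 5th and 95th percentiles the excess ran from -0.352 to 0.175. The low side was the longer.

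Card9 was the steadiest of the remaining genes for its level, with an excess of -0.819, -0.776, -0.811 and -0.843 in animals 1 to 4 (median -0.815). The next of them, Lrrc58, was at -0.711. It had a count in 453 of 454 cells, a median CV of 0.388 and 2448 CPM. Jund (-0.529), the autophagy gene Atg7 (-0.518) and the kinase Taok2 (-0.491) were next among them, all below 0 in every animal. Ftl1-ps1, also among their 10 lowest, is a pseudogene near-identical to the ferritin light chain gene Ftl1, so its counts are uncertain.

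The most variable genes for their level were Ecd (0.378), Tmem263 (0.299) and Akap9 (0.283). Cdk6, a cyclin-dependent kinase, was the only 1 of the top 15 above 1000 CPM, with 0.188, 0.209, 0.286 and 0.272 in the 4 animals at a mean of 1690 CPM. This end of the ranking was loose. Leaving out 1 animal kept 7 to 10 of the 15 highest genes (8 without animal 1, 10 without animal 2, 7 without animal 3 and 9 without animal 4) but 8 to 10 of the 10 lowest. With the SD of log2(CPM + 1) as the measure, 1 of 15 and 2 of 10 stayed.

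The markers lay inside that range. Excess spread was 0.00724 for Tmem119 (rank 490 of 984), 0.0212 for P2ry12 (rank 441) and -0.147 for Sema4b (rank 814). In absolute terms each was broad. Tmem119 had 0 counts in 138 of 454 cells, and in its positive cells a median of 2446 CPM and a highest value of 12094. P2ry12 had 0 counts in 113 cells and Sema4b in 158. B2m was broader than genes of like mean in all 4 animals (0.207, 0.174, 0.301 and 0.0262; rank 36), and its median cell moved from 22.9 CPM in animal 1 to 604 in animal 4. By contrast Cst3 (median CV 0.513), Malat1 (0.518) and Actb (0.554) varied little between cells.

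**Figure D3:**
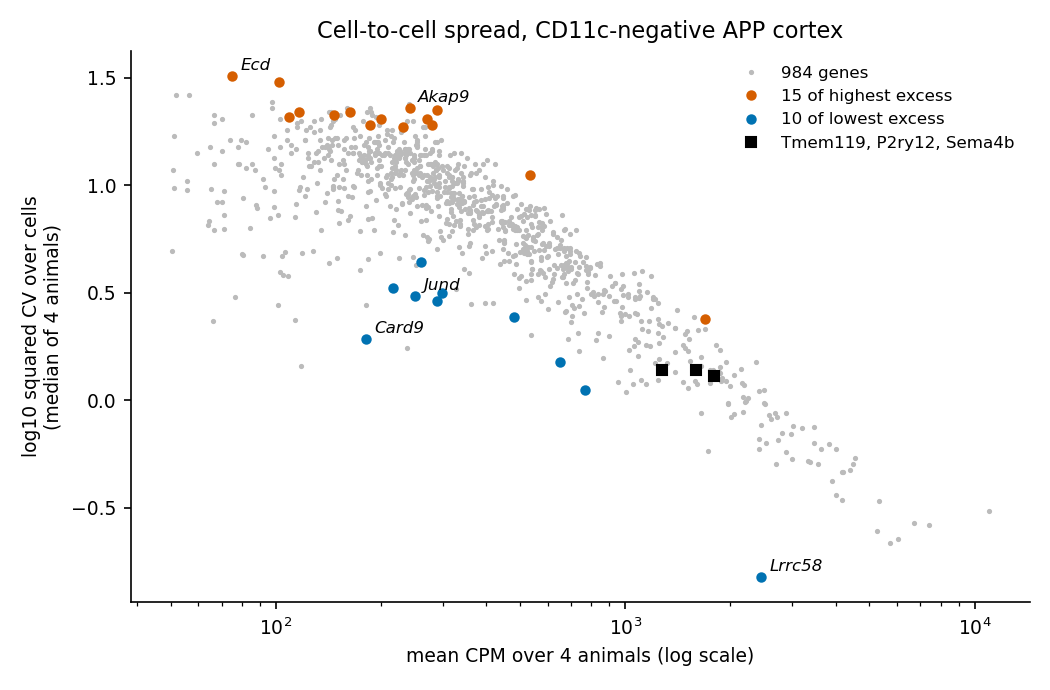
Squared CV over cells (log10, median of 4 animals) against mean CPM (log axis) for 984 genes. The 3 markers lie in or just under the main band, whereas Card9 and Lrrc58 lie well below genes of like mean and the 15 most variable genes lie only slightly above it.

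Co-expression across cells was weak. It is given as Spearman's correlation within each animal after the part explained by a cell's counts and detected genes had been removed, as a median of 4 animals over 151, 150, 79 and 74 cells. The cells of an animal share libraries, so these are descriptions. Among 75466 pairs of 389 genes detected in at least 25% of cells of each animal, the median was 0.00551, and the 1st to 99th percentiles ran from -0.126 to 0.149. Only 49 pairs reached 0.3. Of these, 28 joined genes that overlap or share a stretch of at least 50 bases at 95% identity. Examples are Ftl1 with Ftl1-ps1 (0.963) and Ubb with a ubiquitin pseudogene (0.944). A further 12 had an alignment of at least 85% identity, as had 25.4% of all pairs. Some of these alignments were short, with 25 bases for Bmp2k and Adap2os (0.334). The counts of either kind of pair may come from the same reads, which was not tested. The remaining 9 pairs had no such alignment. Actb with Malat1 led them (0.364, 0.453, 0.681 and 0.592 by animal; median 0.409 without shared entries), followed by Actb with Cst3 (0.45, 0.44, 0.436 and 0.486). Lrrc58 and Card9, both steady for their level, correlated with each other at 0.333, 0.309, 0.328 and 0.491. The lowest pair under the same exclusions with the same sign in all animals was the heat shock factor Hsf2 with C1qc (-0.03, -0.204, -0.313 and -0.432).

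**Figure D4:**
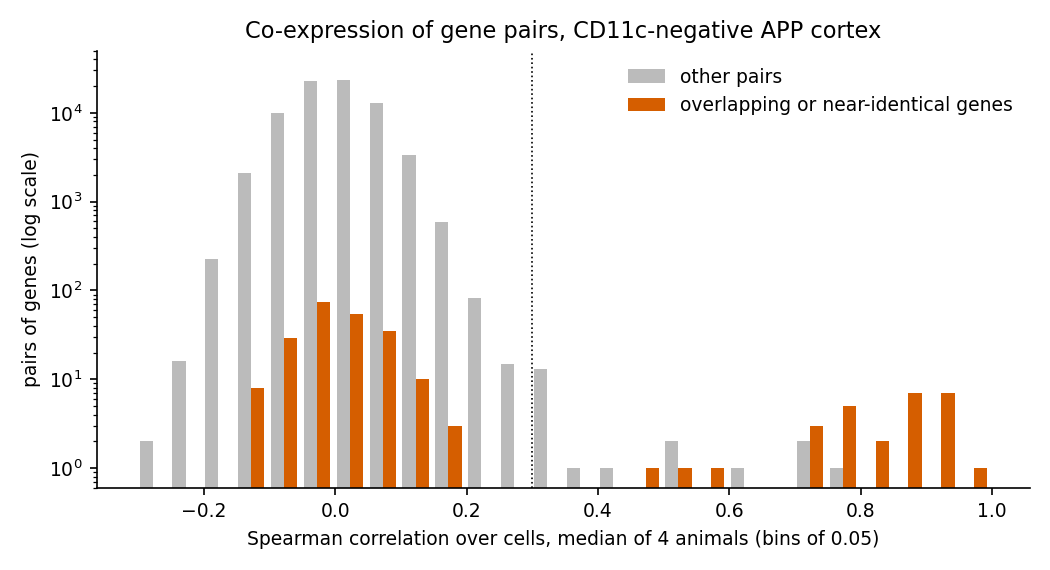
Number of gene pairs (log axis) by median correlation over cells in bins of 0.05, for pairs of overlapping or near-identical genes (orange) and all other pairs (grey). Nearly all pairs lie between -0.2 and 0.2, and the group above 0.7 is made almost only of near-identical genes.

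The strongest partners of Sema4b share sequence with it. They were 6030440G07Rik (0.775, 0.783, 0.877 and 0.735 by animal) and Ccdc125 (0.749, 0.766, 0.676 and 0.639), on chromosomes 12 and 13, while Sema4b is on chromosome 7. The longest identical stretches between Sema4b and these transcripts were 93 and 75 bases. The stretch shared with Ccdc125 lies in the 3′ UTR of both, on the opposite strand of Ccdc125, and 30 bases of it are shown because all 3 genes hold them.
shared run: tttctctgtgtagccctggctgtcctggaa
The run is common, being held by 730 of 55341 genes of the GENCODE vM21 transcript set. The 17 other co-expression genes that hold it had a median correlation of 0.00338 with Sema4b (highest 0.106), against 0.0147 for the 369 genes without it. These 17 were chosen by the 30 bases alone, so their values do not bear on the stretches of 93 and 75 bases. Whether reads were assigned to more than 1 of the 3 genes was not tested, and their levels differ, at 1274 CPM for Sema4b and 76.2 for 6030440G07Rik.

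Genes of the homeostatic list did not form a tight module. Over 78 pairs of 13 homeostatic genes the median was 0.0376 (-0.0946 to 0.223), over 45 lysosomal pairs 0.0511 and over 21 complement and phagocytic pairs 0.0447, against 0.0055 over all 75224 pairs without overlapping or near-identical genes. P2ry12 with C1qc had 0.163, 0.049, 0.235 and 0.387, and Tmem119 with C1qc 0.247, 0.0844, -0.0188 and 0.245. In sparse counts such values are descriptions only.

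Against the 3 like groups, sums per animal were compared with edgeR's quasi-likelihood test over 14892 genes, adjusted by Benjamini-Hochberg, with a threshold of 0.05. All 3 comparisons share these 4 animals. In bulk sums, fewer cells of a type and less RNA per cell cannot be told apart.

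Setting APP against WT cortex asks what the APP genotype changes in cells outside the CD11c gate. No gene passed: edgeR called 0 of 14892 genes (0%), 1354 had an unadjusted p below 0.05, and DESeq2 called 279 (137 higher, 142 lower). With no gene filter edgeR called 1 gene. The main fit had a common biological CV (spread between replicates beyond counting) of 1.37, so 0 calls do not show that levels were equal. Tmem119 was at 1613, 1371, 1969 and 1281 CPM in WT cortex, P2ry12 at 2157, 1664, 2120 and 1540, and Sema4b at 1395, 1187, 1147 and 1290, all overlapping the APP animals. The homeostatic list had 0 of 25 genes past the threshold (median log2 fold change 0.106, against 0.0 over all genes), the DAM core 0 of 15 tested (-0.0524) and the lysosomal list 0 of 30 (0.0978). The 4 animals of the groups did not overlap for 2.14% of genes, and for 0 of 25 homeostatic, 2 of 15 DAM core and 0 of 20 DAM broad genes.

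The interferon list had mostly positive fold changes without a call. Of 19 tested genes 16 had a positive log2 fold change (median 1.42) and 0 passed, against 7381 positive of all 14892 genes. The summed level in WT cortex was 350, 374, 191 and 243 CPM, which overlaps the APP animals. This lean was not particular to the interferon list. MHC class II had 7 of 8 positive (median 1.17) and cell cycle 12 of 17 (1.87, or 0.0487 with genes at 0 at their bound). The neuronal list had 5 of 14 positive. Lpl had no counts in any WT animal, and its adjusted p was 0.402 (edgeR). Prnp was at 136, 101, 143 and 222 CPM in APP and at 13.5, 76.1, 38.1 and 82.8 CPM in WT cortex, so the groups did not overlap, with an adjusted p of 0.708 (edgeR). App was at 70.2, 24.96, 65.3 and 314 CPM against 133, 228, 51.4 and 163, and overlapped.

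Setting cortex against hippocampus within APP mice, 341 genes passed (2.29%), 318 higher (2.14%) and 23 lower (0.154%) in cortex. With the animal as a replicate block, since both regions came from the same animals by title, 0 passed, against 234 in the same 2-group fit without the block. DESeq2 called 1250 (928 higher, 322 lower). Without animals 3 and 4 of the cortical group 194 passed, and without animal 2 of the hippocampal group 183. With the genotype tag in place of the title 172 passed. None of the 12 genes named for this comparison passed with the block (adjusted p of 0.101 to 0.239, edgeR).

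Neuronal and astrocyte transcripts were among the cortical calls. Snap25, a synaptic vesicle fusion protein, was at 51.9, 70.6, 140 and 220 CPM in cortex, in 37 cells, and at 0 in all 4 hippocampal animals, at least 72.3-fold higher against a floor of 3 counts in each of those animals (adjusted p = 0.00628, edgeR). Clu, clusterin, was at 105, 17.9, 124 and 97.4 CPM and also at 0 in hippocampus, at least 51.7-fold higher (adjusted p = 0.00185, edgeR), and Ncam1 at least 61.7-fold. Of 14 neuronal genes 8 were higher (6 without shared entries; median log2 fold change 7.95, or 4.56 with genes at 0 at their bound, against 0.102 over all genes). Of 10 astrocyte genes 2 were higher, Clu and Gja1. Over all genes 2.14% were higher. The neuronal list summed to 96.5, 111, 75.2 and 3.55 CPM in hippocampus, under every cortical animal. Their part in the other cortical differences was not tested. In cells without a count of any marker of another cell type (88 of the 454), 1 of 8164 genes passed. Choosing such cells removes the listed neuronal and astrocyte genes beforehand. It also leaves 6 and 13 cells in cortical animals 3 and 4. The fall in calls therefore does not test what those transcripts contribute.

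Few microglial genes were called. Sema4b was the only homeostatic gene higher in cortex: hippocampal animals had 876, 762, 794 and 780 CPM, all under the cortical ones (log2 fold change 0.87 ± 0.18 SE, adjusted p = 0.00822, edgeR; 0.0394 or less on leaving out any 1 animal; 0.109 without cortical animals 3 and 4). Tmem119 (2417, 2835, 2646 and 2924 CPM in hippocampus) and Cx3cr1 (2211, 2434, 2301 and 2561) were lower in cortex, by log2 fold changes of -0.55 ± 0.14 and -0.74 ± 0.17. The call for Tmem119 was lost on leaving out any 1 animal but cortical animal 2 (adjusted p of 0.0957 to 0.224, edgeR). That for Cx3cr1 was lost without cortical animal 1, 3 or 4 or hippocampal animal 1, 3 or 4 (0.0652 to 0.138). Of 25 homeostatic genes 1 was higher and 2 lower, against 2.14% and 0.154% of all genes (median -0.553, against 0.102). The groups did not overlap for 13 of the 25, against 6.92% of all genes.

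Lysosomal and Fc receptor genes gave further calls. Gm2a, the activator protein of ganglioside breakdown, was higher in cortex (2639, 2398, 1758 and 2081 against 1222, 1691, 1518 and 1344 CPM; log2 fold change 0.83 ± 0.17, adjusted p = 0.00699, edgeR). Ctsd (-0.66 on the log2 scale), the progranulin gene Grn (-0.996) and the Fc receptor Fcgr3 (-1.0) were lower, as was the lysosomal nucleoside transporter Slc29a3 (-1.87). Of 30 lysosomal genes 1 was higher and 2 were lower, against 2.14% and 0.154% of all genes (median -0.29, against 0.102). A single gene higher is near the share over all genes. The call for Ctsd was lost without hippocampal animal 1, 3 or 4 (adjusted p of 0.0679 to 0.106, edgeR). That for Grn was lost without cortical animal 1, 3 or 4 or hippocampal animal 1, 2 or 3 (0.0739 to 0.108). Fcgr3 was lost without any 1 animal but cortical animal 2 (0.0562 to 0.166), and Slc29a3 without any cortical animal or hippocampal animal 1 or 3 (0.0535 to 0.167).

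Setting CD11c-negative against CD11c-positive cells of APP cortex, 183 genes passed (1.23%), 105 higher (0.705%) and 78 lower (0.524%) in CD11c-negative cells. With the animal as a block 271 passed (135 higher, 136 lower), against 434 in the same 2-group fit without the block. DESeq2 called 678 (289 higher, 389 lower). With the genotype tag in place of the title 35 passed, and 11 of 8164 genes in cells without a marker of another cell type. Homeostatic genes were among those higher in CD11c-negative cells and DAM genes among those lower. Itgax itself, the gene of the gate, was at 185, 81.7, 182 and 156 CPM in CD11c-positive cells (log2 fold change -7.25, adjusted p = 0.0779, edgeR; 0.0138 with the block).

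Sema4b had the lowest adjusted p of the homeostatic genes. CD11c-positive cells had 155, 108, 197 and 151 CPM, far under the CD11c-negative 1139 to 1421, a log2 fold change of 3.04 ± 0.20 (adjusted p = 6.39e-10, edgeR), which passed in 18 of 18 alternative settings. Tmem119 was at 383, 422, 414 and 367 CPM in CD11c-positive cells (2.00 ± 0.15, adjusted p = 8.58e-09, edgeR) and P2ry12 at 624, 738, 805 and 634 (1.34 ± 0.16, adjusted p = 1.53e-05, edgeR). Cx3cr1 (1.29), Selplg (0.84), Gpr34 (0.79) and Csf1r (0.80) were higher by smaller steps. Gpr34 had an adjusted p of 0.0932 without animals 3 and 4 of the CD11c-negative group (edgeR). Csf1r was lost without animal 2 of the CD11c-negative group (adjusted p = 0.0636, edgeR) or without animal 2 or 3 of the CD11c-positive group (0.0745 and 0.0559). Crybb1 had the largest fold of the list (3.76 ± 0.65, adjusted p = 0.00164, edgeR; 0.0667 with the block). Of 25 homeostatic genes 11 were higher and 0 lower, against 0.705% and 0.524% of all genes (median 0.891, against -0.19). The groups did not overlap for 15 of the 25, against 12.1% of all genes. Cst3 was not among them, at an adjusted p of 0.3 (edgeR).

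Other genes were higher in CD11c-negative cells too. The transcription factor Maf was at 1060, 865, 1142 and 1012 CPM against 273, 262, 258 and 214 (log2 fold change 2.00 ± 0.26, adjusted p = 5.33e-05, edgeR). Among the leading genes of the population, Malat1 (0.78), Bmp2k (0.73) and Adap2os (1.05) were higher, while Actb was not called (adjusted p = 0.628, edgeR). Cmtm7 (2.88 ± 0.53) and Tm6sf1 (2.75 ± 0.54) had large folds at lower level. The call for Tm6sf1 was lost with the block (adjusted p = 0.0528, edgeR).

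Apoe was at 4782, 4903, 4009 and 4052 CPM in CD11c-positive cells and at 244 to 700 CPM in CD11c-negative ones, a log2 fold change of -3.52 ± 0.54 (adjusted p = 0.000399, edgeR). Cst7 fell from 935, 1052, 1041 and 887 CPM to at most 33.7 (-6.87, adjusted p = 0.0246, edgeR). That call was lost on leaving out animal 1, 2 or 3 of the CD11c-negative or animal 1 of the CD11c-positive group (adjusted p of 0.0512 to 0.106, edgeR). Igf1 (-7.71), Ccl6 (-3.05) and Serpine2 (-1.61) were lower too. Ccl6 had an adjusted p of 0.0516 without shared entries and of 0.0538 to 0.0677 without animal 2, 3 or 4 of the CD11c-negative or animal 1 of the CD11c-positive group (edgeR). Of 15 DAM core genes tested 6 were lower, against 0.524% of all genes. The median of the list was -4.9, or -4.54 with a gene at 0 at its bound, against -0.19 over all genes.

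The lysosomal and early DAM genes made smaller steps on high levels. Ctsb was at 1959, 2231, 1612 and 1652 CPM against 4550, 4601, 3828 and 3619 (log2 fold change -1.17 ± 0.17, adjusted p = 0.000253, edgeR). Ctsd (-0.85), the tetraspanin Cd63 (-1.97), the ferritin heavy chain Fth1 (-1.40), Tyrobp (-1.01) and B2m (-0.90) were lower as well. Of 20 DAM broad genes 15 were lower (13 without shared entries) and of 30 lysosomal genes 9, against 0.524% of all genes. The medians were -1.33 and -0.764, against -0.19 over all genes. Without animals 3 and 4 of the CD11c-negative group, whose libraries have CD11c-positive partners, 112 genes passed, among them Sema4b, Tmem119, P2ry12 and Apoe. The second library of animal 2, which also has such a partner, stayed in that fit. Leaving out single animals gave 115 to 145 calls, lowest without animal 1 of the CD11c-positive group. The lists and markers were chosen with earlier results of these samples known, so their directions are not independent evidence.

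**Figure D5:**
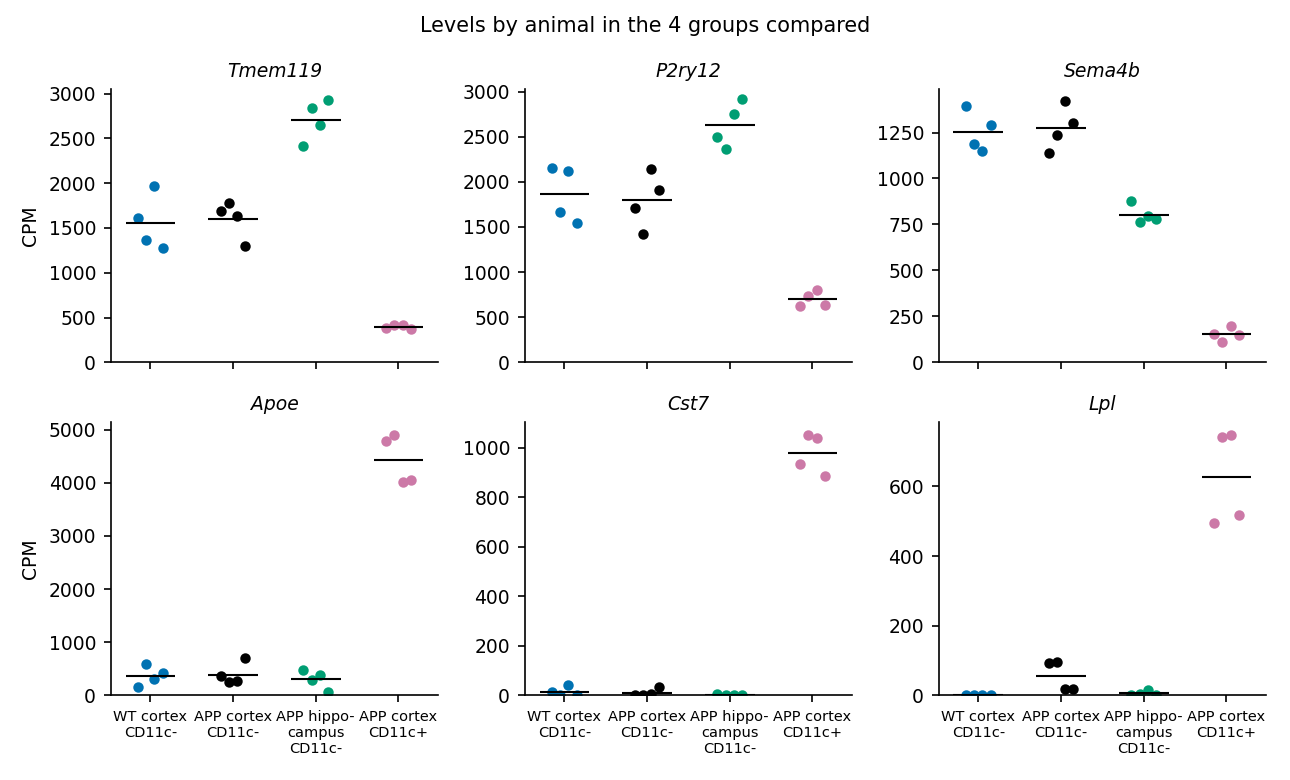
CPM of 6 genes in each of 4 animals of CD11c-negative WT cortex, CD11c-negative APP cortex (black), CD11c-negative APP hippocampus and CD11c-positive APP cortex; bars are means and axes start at 0. Tmem119, P2ry12 and Sema4b overlap between WT and APP cortex and drop in CD11c-positive cells, where Apoe, Cst7 and Lpl rise out of the range of the other groups.

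Per cell, 9 comparisons were made with two-sided exact permutation tests over 4 against 4 animals, for which 0.029 is the smallest p possible. Genes detected per cell at 5000 counts averaged 548 ± 88.5 (SD, n = 4 animals) here, 590 ± 62.4 in WT cortex, 622 ± 30.5 in APP hippocampus and 836 ± 136 in CD11c-positive APP cortex. The mitochondrial share was 1.2% ± 0.296 against 1.12% ± 0.29, 1.18% ± 0.104 and 2.49% ± 0.421. Cells with a count of Apoe, over all counts, made up 45.8% ± 27.2 against 24.6% ± 10.9, 38.8% ± 12.3 and 99.3% ± 0.571. Animals separated only from the CD11c-positive group, in all 3 measures (exact permutation p = 0.0286 each, 0.0857 after Benjamini-Hochberg adjustment over 9). The 6 other adjusted p values lay between 0.514 and 1.0. In cells thinned to 5000 counts the Apoe share was 15.7%, 7.43%, 31.6% and 57.6% in animals 1 to 4, against 8.55% to 24.1% in WT cortex, 15.4% to 23.4% in hippocampus and 94.1% to 99.3% in CD11c-positive cells. Its mean difference was then 13.7 points from WT cortex, 9.27 from hippocampus and -68.1 from CD11c-positive cells.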

How the data were processed

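Single microglia were profiled in 36 libraries by a Smart-seq2-based protocol. The authors deposited counts for each gene in each barcode, not normalized. Per the submitters' processing notes the tools were UMI-tools 0.5.3, HISAT2 2.1.0 and featureCounts 1.6.0 on GRCm38 (mm10). The sources used here do not say whether reads of a molecule were merged, so floors of 3 counts cover counting error only. The members and the 23 gene lists were chosen with earlier results of these data known. Groups came from the titles, and counts were added up per animal, brain region and CD11c gate into 23 replicates in 6 groups. Sums were fitted with edgeR 4.0.16 (R 4.3.3, limma 3.58.1; TMM, filterByExpr, a mean per group, quasi-likelihood test, Benjamini-Hochberg at 0.05), with DESeq2 1.42.0 as an alternative. The depth was 1037425 to 4484427 counts per replicate fitted. Cells need at least 200 genes. Spread and co-expression came from numpy 2.4.6 and scipy 1.17.1, and alignments from blastn 2.17.0. The functions for spread, co-expression and thinning and the edgeR fit were tested on simulated data, the other steps were not. The edgeR simulation used a lower dispersion than these data had.

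The rule for named genes took Tmem119, P2ry12, Sema4b, Itgax, App and Prnp, the 20 leading genes by CPM and per kb, the 15 and 10 genes of extreme spread, the 15 and 5 extreme gene pairs, up to 8 genes each way per comparison of at least 50 CPM whose animals did not overlap, and up to 6 members of highest CPM per list. Mitochondrial, ribosomal protein and predicted genes were left out. Not every such gene is printed, and 1 gene that the rule takes is not reported here. Genes shown for few or no counts (Igf1, Il1b, Mki67, H2-Ab1 and the like) and the pair partners 6030440G07Rik and Ccdc125 were singled out after their values were seen. Both regions and both gates came from the same animals by title, so animal numbers pair those groups. Same-numbered deviations correlated at -0.0379 to 0.0354 for hippocampus and 0.0483 to 0.124 for CD11c-positive cells over 3561 genes. Alternatives added after seeing the data were the removal of shared entries, the same filter with shifted barcodes, 2-group fits without the block, leaving out animals 3 and 4 and thinning for the Apoe share. No library was a copy of another (lowest chi-square per gene 20.9 over 630 pairs). Animal numbers in the titles are taken as separate animals, and p values measure the spread between them.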

Additional observations from a re-analysis of the deposited data

Results flagged for a closer look

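Of 51 groups of 4 animals examined, 6 had 1 animal far from the rest, by its gap to the nearest animal relative to the whole range. Chance alone gives this in about 1 group in 20. In CD11c-negative APP cortex, Cst3 was low in animal 3, at 6766 CPM. Animal 4 was high for Ctss (3126 CPM), Cst7 (33.7 CPM) and App (314 CPM) and low for Ctsd (1819 CPM). Animal 4 had the fewest counts (1037425), and of its 22 Cst7 cells 1 remained without shared entries and 6 with that filter on shifted barcodes. In CD11c-negative APP hippocampus, animal 2 had the highest mitochondrial share, 1.33%.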

How the results depend on the processing

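Of the 20 leading genes 19 or 20 stayed under 8 alternatives. For the counts of genes called, DESeq2 gave 279 (APP against WT), 1250 (cortex against hippocampus) and 678 (CD11c-negative against CD11c-positive), against 0, 341 and 183. No gene filter gave 1 for APP against WT. The labels' genotype tag in place of the title gave 0 of 18954 genes for APP against WT, and 172 and 35 for region and gate. For region and gate, cells without another cell type's marker gave 1 and 11 (8164 genes tested, 88 of 454 cells here). Leaving out animals 3 and 4 of this population gave 194 and 112. The replicate block gave 0 for region and 271 for the gate, where the 2-group fit without the animal term gave 434. Under the block 12 of 12 region folds named were no longer called, and of 26 at the gate only Crybb1 and Tm6sf1; it gave 0 for APP against WT, where numbers do not pair animals (correlations of -0.0783 to 0.0509, 0 of 4 best with their own number). Leaving out each animal gave 0 for genotype, 183 to 315 for region and 115 to 145 for the gate. Genes in at least 50% of cells were 105 with at least 5 counts, and 183 to 210 on leaving out animals. Of the 15 most variable genes 7 to 10 stayed on leaving out animals, 9 within library and 1 with the SD of log2 CPM, of the 10 steadiest 8 to 10 and 2. Pairs at 0.3 or more were 49, of which 21 without overlapping or near-identical genes. Without depth removed the latter were 45, with Pearson's correlation 13, on leaving out animals 18 to 36 (all pairs 46 to 64), and in cells without another type's marker 2217 (2252 of all pairs), where 6 to 36 cells per animal remained. The mitochondrial difference from WT cortex, 0.0751 points, ran from -0.0163 (without animal 3 here) through -0.00718 (without WT animal 3) and -0.00356 (without animal 4 here) to 0.208, and that from hippocampus, 0.0235, from -0.068 (without animal 3) and -0.0552 (without animal 4) to 0.114, and was -0.00805 without shared entries and -0.0192 with that filter on shifted barcodes. The Apoe share exceeded WT cortex by 21.2 points and hippocampus by 7.02. It changed to -1.0 and -9.67 without shared entries and to -0.0345 and -9.02 with shifted barcodes, so that this filter does not test the difference, and for hippocampus to -0.503 and -1.14 without animal 3 or 4. Leaving out animals gave 13.1 to 29.8 and -1.14 to 15.6. The causes were not tested.

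Low depth limits genes with few counts: with 3 counts as the floor, an animal here shows nothing under 0.681 to 2.89 CPM.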
